A study of Homo sapiens with 6 samples.

Results

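Immune checkpoint ligands are surface proteins that a tumour cell shows to lymphocytes or macrophages and that, on binding their receptor, restrain these cells. Some belong to the B7 family of immunoglobulin-like proteins, others to the nectins, the galectins or the tumour necrosis factor receptors, and CD47 passes a signal against engulfment to the macrophage receptor encoded by SIRPA. In squamous carcinoma, CD274 (which encodes PD-L1) is best known as a gene switched on by interferon gamma through the JAK kinases and IRF1. The 10 genes described here are CD274, PDCD1LG2, CD276, VTCN1, HHLA2, PVR, NECTIN2, CD47, LGALS9 and TNFRSF14. They were chosen by symbol and for this role, but with earlier results of these data known. All 10 had a row among the 38167 genes of the count table.

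The libraries came from spheroids of Cal27, an established human line from a squamous carcinoma of the tongue, grown by liquid overlay in Matrigel, a gel of basement membrane proteins. The stiff group was cultured at 12 mg/mL and the soft group at 3 mg/mL, each with 3 libraries made from polyadenylated RNA on day 14. Every library comes from the same line with no drug or genetic change in the labels, no immune cell is named in the labels, and matrix stiffness and matrix amount cannot be told apart because both follow the concentration. The labels call the replicates biological and do not say whether they were separate cultures, so the p-values measure only the spread between these libraries.

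The libraries held 30656278 to 40583044 counted fragments, of which the 10 genes took 24013 to 31416. Stiff replicate 2 stood apart from the other stiff libraries (r = 0.988 with each across genes, against 0.994 between the other pair), so results that rest on it are given without it. The squamous markers (KRT5, KRT14, KRT6A, TP63, SFN, DSG3, CDH1 and EPCAM) were all present, with a summed level of 15200 to 16100 CPM in stiff and 4450 to 4850 CPM in soft, where CPM is the fragment count scaled to library size with TMM factors. KRT5, KRT14, KRT6A, SFN and TP63 rose (1.61-fold to 6.28-fold), CDH1 fell 1.36-fold (adjusted p = 0.00194), EPCAM fell 1.26-fold (adjusted p = 0.011) and DSG3 did not pass (adjusted p = 0.0746), so the sum follows the keratins and SFN. Of 12 leukocyte markers, PTPRC had 4 fragments over the stiff libraries and 1 over the soft libraries, and CD3D and MS4A1 had 0 in every library. The summed leukocyte markers were at 40.6 to 48.4 CPM in stiff and 53.7 to 59.2 CPM in soft, most of it CD14, which fell (36.6 CPM in stiff and 51.4 CPM in soft, adjusted p = 0.00218). CSF1R rose (2.27 CPM in stiff and 0.799 CPM in soft, adjusted p = 0.000687), as did ITGAM (4.99 CPM in stiff and 2.96 CPM in soft, adjusted p = 0.00854), and CD3E and CD4 did not pass (adjusted p = 0.817 and 0.142). The 6 fibroblast and endothelial markers summed to 83.8 to 91.5 CPM in stiff and 71.2 to 79.9 CPM in soft, with VWF (2.03-fold, adjusted p = 0.00234) and COL1A1 (82.6 CPM in stiff and 71.8 CPM in soft, adjusted p = 0.0432) higher and COL1A2, PDGFRB and PECAM1 not past the threshold; the part of these markers in the results below was not tested.

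Of the 9 checkpoint ligands that passed the filter on low counts, 5 fell in stiff Matrigel (LGALS9, VTCN1, PVR, TNFRSF14 and CD274), 1 rose (CD47) and 3 did not pass the threshold (CD276, NECTIN2 and PDCD1LG2). HHLA2 was not tested. The test was edgeR's quasi-likelihood test with Benjamini-Hochberg adjustment over 18676 genes and a threshold of 0.05. The 6 called members are 66.7% of those tested, against 49.1% of all genes tested; 55.6% of members were lower against 23.8% of all genes, and 11.1% were higher against 25.3%. In 7 of the 9 (77.8%) the stiff and soft values did not overlap, as in 59.9% of all genes tested. The median log2 fold change of the 9 was -0.39, beside 0 for all genes. With members counted in this small number, the shares are a description and no test was made of the group. In bulk libraries, fewer cells of a type and less RNA per cell cannot be told apart.

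**Figure D1:**
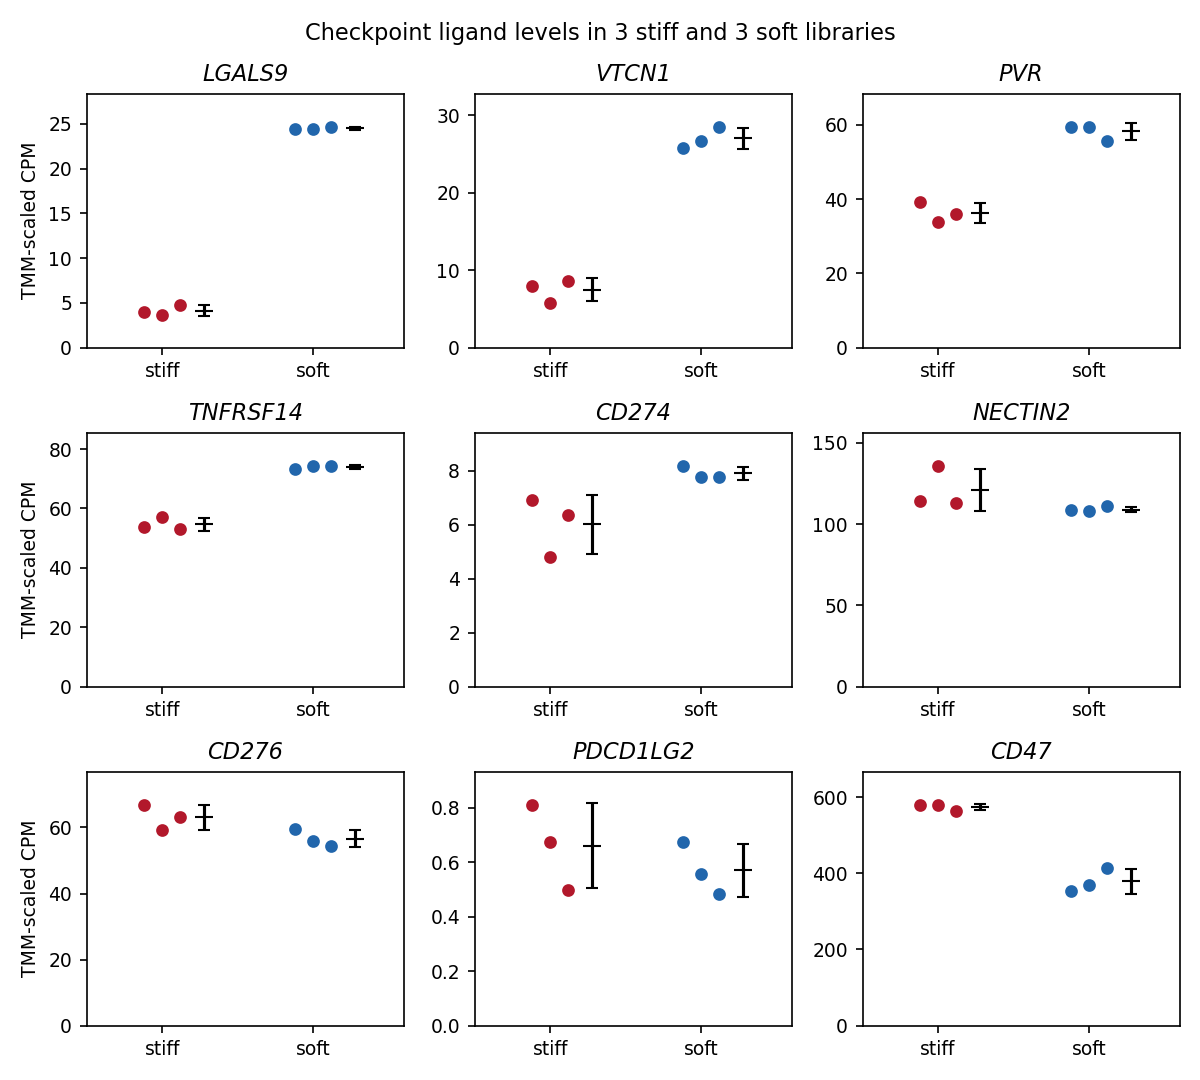
TMM-scaled CPM of the 9 tested checkpoint ligands in each stiff (red) and soft (blue) library; points are libraries 1 to 3, bars are the mean and SD, and each vertical axis starts at 0. LGALS9, VTCN1, PVR, TNFRSF14 and CD274 lie lower in every stiff library than in any soft library, and CD47 and NECTIN2 lie higher.

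The reference sequence before the start of CD274 is shown because the levels of CD274 are set out below beside those of IRF1, a factor known to act on this gene. It covers chr9:5450292-5450502 on the plus strand (RefSeq, GRCh38.p14), and capitals mark matches, on either strand, to a core of interferon regulatory factor (IRF) sites, spelled GAAA, any 2 bases, GAAA.
CD274: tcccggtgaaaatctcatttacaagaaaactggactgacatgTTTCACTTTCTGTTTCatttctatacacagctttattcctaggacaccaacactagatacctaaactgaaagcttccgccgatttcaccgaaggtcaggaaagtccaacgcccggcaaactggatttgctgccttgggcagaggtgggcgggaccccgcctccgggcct
The run of capitals holds 2 matches to the IRF core that overlap each other. Over the 250 bases before each start in the RefSeq table, 3.02% of 35116 promoters held the IRF core. Of the 10 members, 9 were matched in that table (all but PDCD1LG2), and of these only CD274 held a match to it. TGANTCA, the AP-1 core (6.57% of promoters), matched at HHLA2; GGAATG, the TEAD core (11.9%), matched at PVR and TNFRSF14; and an NF-kB core, spelled GGG, any 2 bases, TTTCC (1.73%), matched at none. A match is a description of letters and not a bound site. Whether IRF1 bears on the level of CD274 in these libraries was not tested.

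LGALS9 encodes galectin-9, a lectin that binds the T cell receptor encoded by HAVCR2, and chromosome 17 also holds near-identical copies named LGALS9B and LGALS9C. Coding bases 4 to 153, counted from the A of the start codon, are shown because the counts of the copies moved the other way from those of LGALS9; capitals mark the 11 positions at which the 3 sequences are not all alike.
LGALS9: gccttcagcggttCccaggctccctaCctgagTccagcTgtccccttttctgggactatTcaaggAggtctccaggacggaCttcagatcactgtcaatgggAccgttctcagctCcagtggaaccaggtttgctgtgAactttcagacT
LGALS9B: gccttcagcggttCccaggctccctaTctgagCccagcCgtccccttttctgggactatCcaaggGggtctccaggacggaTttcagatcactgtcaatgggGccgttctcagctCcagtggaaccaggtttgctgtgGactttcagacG
LGALS9C: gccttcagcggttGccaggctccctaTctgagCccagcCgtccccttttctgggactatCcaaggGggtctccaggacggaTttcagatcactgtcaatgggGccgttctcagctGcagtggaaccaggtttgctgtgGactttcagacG
The sequences come from GENCODE release 29 transcripts (GRCh38). Over the aligned coding sequence, LGALS9 was 96.3% identical to LGALS9B and 95.9% to LGALS9C, and the copies were 99.5% identical to each other. At the read length of 61 bases, 7.24% of the coding 61-base runs of LGALS9 occurred in a transcript of either copy, against 74.2% of those of LGALS9B and of LGALS9C. Over all their annotated transcripts, untranslated parts included, 89.8% of the 61-base runs of LGALS9, 37.9% of those of LGALS9B and 64.5% of those of LGALS9C occurred in no other gene. Reads were pairs, so a pair can be told apart where either read can.

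Among the members, LGALS9 (Entrez 3965, chromosome 17, 27629798 to 27649560) had the largest change. It stood at 3.97, 3.64 and 4.82 CPM in the stiff libraries and at 24.4, 24.4 and 24.7 CPM in the soft libraries. Every stiff value was below every soft value, and the SD was 0.609 CPM in stiff and 0.185 CPM in soft (n = 3). LGALS9 changed by -2.56 ± 0.11 on the log2 scale (SE), a 5.9-fold fall (adjusted p = 2.43e-07), and it was called lower under each of 15 other settings of the analysis. LGALS9B had 106, 123 and 128 fragments in stiff and 30, 22 and 14 in soft, and LGALS9C had 73, 127 and 76 in stiff and 24, 12 and 27 in soft. Both copies rose, LGALS9B by 5.45-fold (adjusted p = 1.36e-05) and LGALS9C by 4.35-fold (adjusted p = 0.000576). LGALS9 thus held 43.4%, 34.2% and 46% of the fragments of the family in stiff, against 94.9%, 96.1% and 94.9% in soft. With the 3 genes summed, an alternative chosen after seeing the data, the family stood at 10.1 ± 0.814 CPM in stiff and 25.7 ± 0.331 CPM in soft (SD, n = 3), a 2.55-fold fall (adjusted p = 2.04e-06). The treatment of reads with several matches is not given in the sources used here, so the split among the copies is uncertain.

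**Figure D2:**
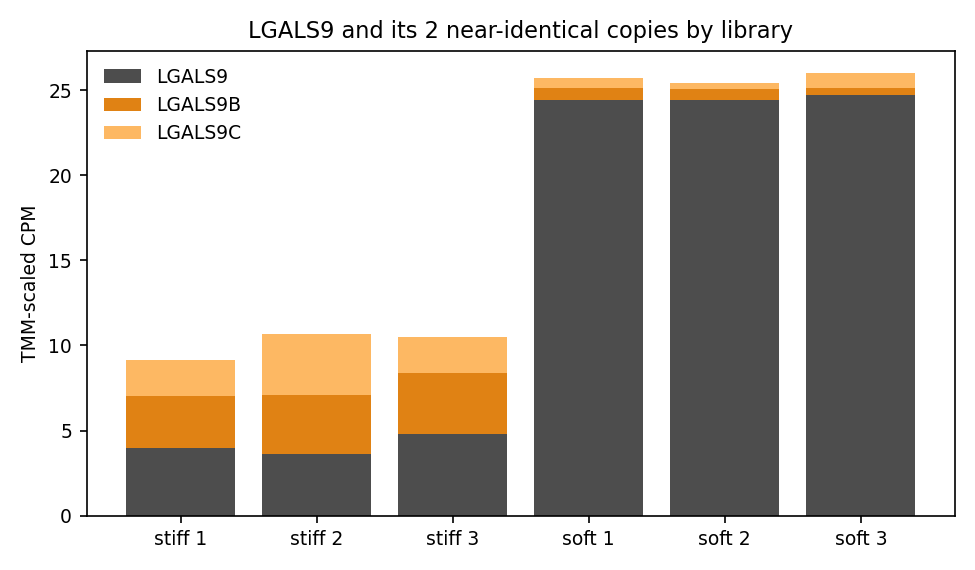
Stacked TMM-scaled CPM of LGALS9 (dark), LGALS9B (orange) and LGALS9C (light orange) in each library, from 0. LGALS9 makes up 34.2% to 46% of the family's fragments in stiff libraries and 94.9% to 96.1% in soft libraries, and the whole bar is lower in stiff.

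By a likeness rule taken from log2 CPM over the 6 libraries, the genes closest to LGALS9 were TRIM22 (Pearson r = 0.9999), MIR6510 (0.9996) and TMPRSS2 (0.9994). They were taken from the 11526 genes whose mean reached 5 CPM, of which 1466 had r over 0.95, so a high r mainly restates the difference between the groups. TRIM22, an interferon-inducible ubiquitin ligase, was at 58.1, 55.9 and 63.6 CPM in stiff and 123, 123 and 122 CPM in soft, with 10.7% of its exons overlapped by OR56B1. TMPRSS2, a membrane serine protease, was at 2.18 ± 0.332 CPM in stiff and 12.6 ± 0.646 CPM in soft (SD, n = 3). MIR6510 is a 54-base microRNA entry that overlaps 2 bases of KRT15 (3.7% of the entry) on the same strand. Whether its fragments come from that keratin was not tested. MIR6510 was at 55.1 ± 2.89 CPM in stiff and 96.8 ± 1.06 CPM in soft (SD, n = 3).

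The B7 family members did not move alike. VTCN1 (Entrez 79679, chromosome 1, 117143587 to 117210960) encodes an inhibitor of T cell activation with no settled receptor, and it stood at 7.89, 5.8 and 8.65 CPM in stiff and 25.8, 26.7 and 28.5 CPM in soft. The groups were far apart, and stiff replicate 2 was the lowest library. VTCN1 changed by -1.86 ± 0.13 on the log2 scale (SE), a 3.62-fold fall (adjusted p = 3.5e-06), also called under each of 15 other settings of the analysis.

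CD274 (Entrez 29126, chromosome 9, 5450503 to 5470566), whose product binds the T cell receptor encoded by PDCD1, was at 6.9, 4.79 and 6.35 CPM in stiff and 8.18, 7.77 and 7.75 CPM in soft. These rest on 171 to 238 fragments per stiff library and 241 to 340 per soft library. The groups did not overlap, but stiff replicate 3 and stiff replicate 1 lay close to the soft values. The log2 fold change was -0.39 ± 0.14 (SE, 95% interval -0.71 to -0.08), a 1.31-fold fall at the edge of the threshold (adjusted p = 0.0426, between 0.0193 and 0.122 over 15 other settings). The call was lost without stiff replicate 2 (log2 fold change -0.26, adjusted p = 0.0647), stiff replicate 3 (-0.43, 0.0613), soft replicate 1 (-0.37, 0.122), soft replicate 2 (-0.41, 0.0845) or soft replicate 3 (-0.41, 0.083), and in the 3 fits on TPM. The direction was lower in all 15.

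PDCD1LG2 (Entrez 80380, chromosome 9, 5510570 to 5571254) encodes PD-L2, the other ligand of the same receptor, and lies 40 kb beyond CD274 with no protein-coding gene between them. It had 28, 24 and 18 fragments in stiff and 28, 19 and 15 in soft, or 0.812, 0.673 and 0.499 CPM in stiff and 0.674, 0.557 and 0.482 CPM in soft. The groups overlapped. The log2 fold change was 0.2 with a 95% interval of -0.5 to 0.89 (adjusted p = 0.624), so a change as large as that of CD274 was not detectable at this depth. CD274 had 8.5, 7.12 and 12.7 fragments for each of PDCD1LG2 in stiff and 12.1, 13.9 and 16.1 in soft, ratios that overlapped between the groups.

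CD276 (Entrez 80381, chromosome 15, 73683966 to 73714518) encodes B7-H3, which is carried by many epithelial tumours, and it was the most abundant B7 member. It was at 66.9, 59.3 and 63.1 CPM in stiff and 59.5, 55.9 and 54.5 CPM in soft. The groups overlapped because stiff replicate 2 lay just below soft replicate 1. The log2 fold change was 0.15 with a 95% interval of -0.01 to 0.32 (adjusted p = 0.11). Without stiff replicate 2 the gene was called higher (log2 fold change 0.2, adjusted p = 0.00841), and 2 members then rose in place of 1. CD276 had 9.69, 12.4 and 9.93 fragments for each of CD274 in stiff and 7.28, 7.19 and 7.04 in soft. HHLA2 (Entrez 11148, chromosome 3, 108296490 to 108378285), a B7 member that binds TMIGD2 and KIR3DL3, had 0, 6 and 0 fragments in stiff and 3, 2 and 0 in soft, was listed at 0 TPM in every library and gives no fold.

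**Figure D3:**
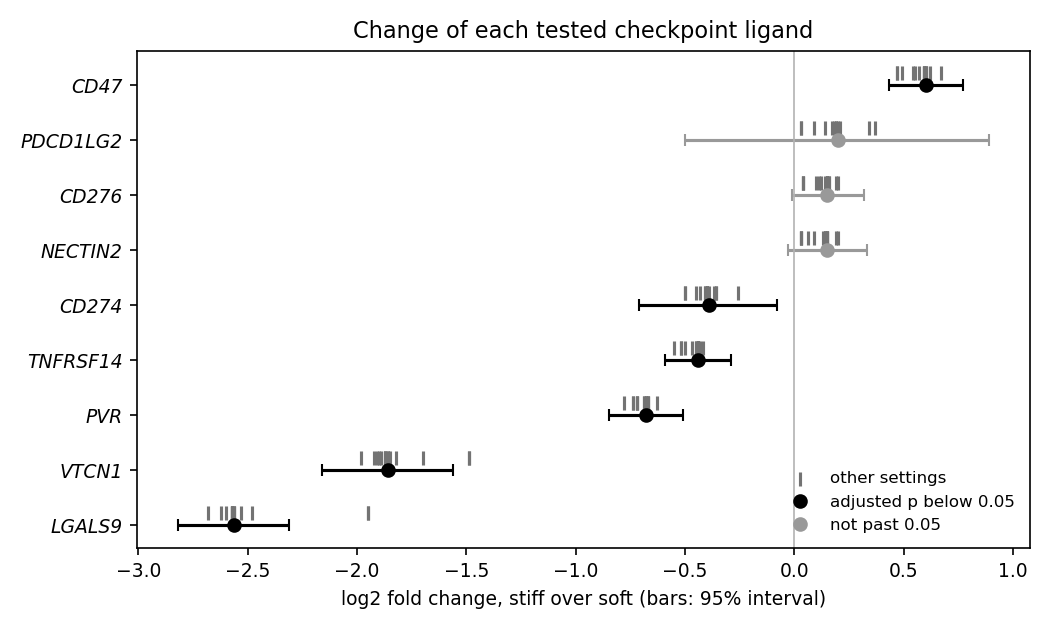
Log2 fold change of stiff over soft for the 9 tested ligands, with 95% intervals (black where adjusted p is below 0.05, grey otherwise) and grey ticks above each for the other settings of the analysis. The intervals of CD276, NECTIN2 and PDCD1LG2 include 0, that of CD274 ends at -0.08, and CD47 is the member called higher.

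PVR and NECTIN2 are nectin-like adhesion proteins on chromosome 19 that both engage TIGIT, an inhibitory receptor, and CD226, an activating receptor, on T and NK cells. PVR (Entrez 5817, 44643798 to 44663583) was at 39.2, 33.9 and 35.9 CPM in stiff and 59.5, 59.5 and 55.7 CPM in soft. All stiff libraries were lower than all soft libraries, and the log2 fold change was -0.68 ± 0.08 (SE), a 1.6-fold fall (adjusted p = 7.14e-05). NECTIN2 (Entrez 5819, 44846175 to 44889228), 183 kb away with 4 protein-coding genes between, was at 114, 136 and 113 CPM in stiff and 109, 108 and 111 CPM in soft. Its groups did not overlap, yet stiff replicate 2 was well above the other stiff libraries, and the log2 fold change of 0.15 (95% interval -0.03 to 0.33) did not pass the threshold (adjusted p = 0.161). Without stiff replicate 2 it was 0.06 (adjusted p = 0.37). Within each library, PVR had 0.343, 0.249 and 0.318 fragments for each of NECTIN2 in stiff and 0.545, 0.552 and 0.501 in soft. These ratios did not overlap; 3 libraries against 3 cannot reach an exact permutation p below 0.1, and none is given.

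CD47 (Entrez 961, chromosome 3, 108043094 to 108091862) was the member that rose. It stood at 580, 579 and 564 CPM in stiff and 354, 368 and 415 CPM in soft. The stiff libraries were nearly equal, and each was well above the highest soft library. CD47 changed by 0.6 ± 0.07 on the log2 scale (SE), a 1.52-fold rise (adjusted p = 0.000118), called under each of 15 other settings of the analysis. CD47 supplied 65.7% to 66.4% of the fragments of the 10 members in stiff and 49.5% to 53.8% in soft. The members together were at 849 to 881 CPM in stiff and 714 to 772 CPM in soft, whereas without CD47 they were at 285 to 302 CPM in stiff and 357 to 361 CPM in soft. Whether the sum is higher or lower in stiff thus follows CD47 on the CPM scale; on deposited TPM, which gives CD47 less weight, the sum was 164 to 167 in stiff and 170 to 183 in soft.

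Of 7 genes that process, bind or act with CD47, 3 rose and 1 fell, a called share of 57.1%, near the 49.1% of all genes, and the median log2 fold change was 0.34. By direction, 42.9% were higher against 25.3% of all genes, and 14.3% were lower against 23.8%. THBS1, the matrix glycoprotein thrombospondin that binds CD47, rose 2.21-fold to 84 ± 6.47 CPM in stiff, against 38 ± 2.28 CPM in soft (SD, n = 3, adjusted p = 3.48e-06). QPCTL, the Golgi glutaminyl cyclase that makes the pyroglutamate through which CD47 meets SIRPA, was at 23.1 ± 3.86 CPM in stiff and 12.8 ± 0.52 CPM in soft, a 1.8-fold rise (adjusted p = 0.000271). CALR, an engulfment signal that opposes CD47, rose 1.28-fold (adjusted p = 0.00184), and QPCT, the secreted cyclase, fell 1.62-fold (adjusted p = 0.00175). SIRPA was at 15.7 ± 0.835 CPM in stiff and 17 ± 1.51 CPM in soft (SD, n = 3, adjusted p = 0.365), and UBQLN1 and LRP1 did not pass either (adjusted p = 0.582 and 0.0901). LRP1 was at 390, 248 and 359 CPM in stiff and 286, 227 and 275 CPM in soft. Without stiff replicate 2, 4 of the 7 genes rose in place of 3, as also without a count filter and with a replicate block.

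TNFRSF14 (Entrez 8764, chromosome 1, 2555639 to 2565382) encodes HVEM, which restrains T cells through BTLA and CD160 and stimulates them through its ligand LIGHT, the product of TNFSF14. It was at 53.7, 57 and 53 CPM in stiff and 73.3, 74.4 and 74.3 CPM in soft. The groups were apart and each was tight. The log2 fold change was -0.44 ± 0.07 (SE), a 1.36-fold fall (adjusted p = 0.000407), called under each of 15 other settings of the analysis. The antisense gene TNFRSF14-AS1 covers 13.4% of its exons on the opposite strand and was at 11.8, 9.47 and 11.4 CPM in stiff and 16.7, 17 and 19.1 CPM in soft, a 1.61-fold fall (adjusted p = 0.000598). The strand setting of the counting is not given in the sources used here, so these are not fully told apart. TNFSF14 itself fell 5.28-fold to 2.89 ± 0.473 CPM in stiff, against 15.3 ± 0.202 CPM in soft (SD, n = 3, adjusted p = 6.49e-07).

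The order of the ligands depends on the length used. Per kilobase of merged GENCODE exons, the stiff levels ran from CD47 (69.8 ± 1.09 CPM per kb) through NECTIN2 (32.3 ± 3.48), CD276 (11.4 ± 0.679), PVR (10.3 ± 0.751), TNFRSF14 (8.78 ± 0.345), VTCN1 (2.46 ± 0.487), CD274 (1.46 ± 0.266) and LGALS9 (0.726 ± 0.107) to PDCD1LG2 (0.28 ± 0.0663), each SD over 3 libraries. CD276 and PVR overlapped there, and no other neighbours did. The soft levels ran from CD47 (46 ± 3.91 CPM per kb) through NECTIN2 (29.2 ± 0.46), PVR (16.5 ± 0.632), TNFRSF14 (11.9 ± 0.104), CD276 (10.2 ± 0.468), VTCN1 (8.92 ± 0.454), LGALS9 (4.29 ± 0.0324) and CD274 (1.92 ± 0.0598) to PDCD1LG2 (0.241 ± 0.0408), with no overlap between neighbours. In deposited TPM, NECTIN2 was first (102 ± 4.9 in stiff and 99.8 ± 4.03 in soft) and CD47 next (28.1 ± 1.4 in stiff and 20 ± 1.53 in soft; SD, n = 3). The length implied by the authors' TPM was 3.49 times the merged exons for CD47 and 0.444 times for NECTIN2, on a scale where the median of 5981 well counted genes is 1 and the quartiles are 0.483 and 2.04. On both scales LGALS9 was below CD274 in stiff and above it in soft (1.1 and 2.13 TPM in stiff, 7.1 and 3 TPM in soft). In stiff, LGALS9B was at 3.87 TPM and LGALS9C at 0.7 TPM. The order of LGALS9 and CD274 in stiff thus depends on the uncertain split of reads among the copies. CD276 ranked 3 in stiff and 5 in soft on both scales. In stiff TPM, however, CD276 (11.4 ± 1.23) and TNFRSF14 (11.3 ± 0.252) overlapped (SD, n = 3), so their order there is not settled.

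**Figure D4:**
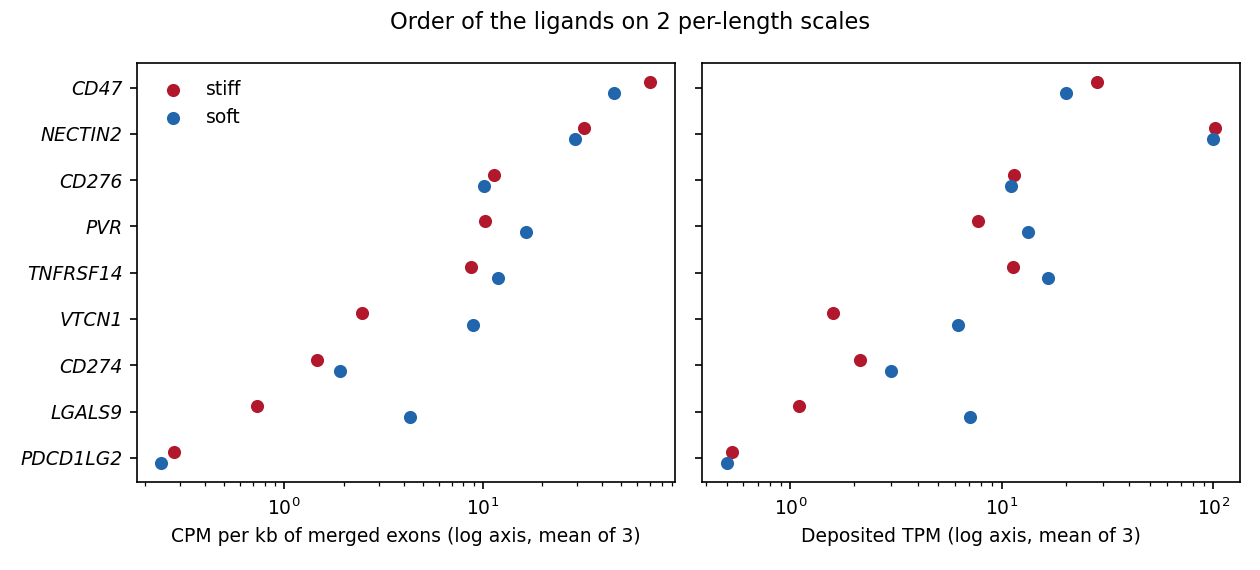
Mean level of each tested ligand over 3 stiff (red) and 3 soft (blue) libraries, in CPM per kilobase of merged exons (left) and in deposited TPM (right), both on log axes. CD47 leads on the left scale (69.8 in stiff and 46 in soft) and NECTIN2 on the right (102 in stiff and 99.8 in soft), and PDCD1LG2 is lowest on both.

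Of 13 tested genes of the interferon gamma route to CD274, 7 fell (53.8%, against 23.8% of all genes), 3 rose (23.1%, against 25.3%) and 3 did not pass. No test of the list or of its link to CD274 was made, and the median log2 fold change was -0.36. IRF1 was at 104 ± 9.86 CPM in stiff and 187 ± 4.12 CPM in soft, a 1.8-fold fall (SD, n = 3, adjusted p = 1.63e-05). The kinase JAK1 fell 1.63-fold (adjusted p = 0.000281), the receptor chain IFNGR1 fell 1.31-fold (adjusted p = 0.000779) and SOCS1, a feedback inhibitor of JAK kinases, fell 2.07-fold (adjusted p = 0.000428). The genes that rose, named once their values were known, were IFNGR2, IRF2 and PTPN2 (1.23-fold to 1.32-fold; for IRF2, adjusted p = 0.00215, and 0.0732 with limma on TPM), of which IRF2 antagonises IRF1 and PTPN2 is a tyrosine phosphatase. JAK2, STAT3 and SOCS3 did not pass (adjusted p = 0.131, 0.861 and 0.183). The gene C5orf56 covers 22% of the exons of IRF1 and TMEM50B covers 12.8% of those of IFNGR2 on the opposite strand, so both counts are uncertain.

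Of 11 other transcription factors described at CD274, 4 rose and 2 fell (54.5% called, against 49.1% of all genes), and the median log2 fold change was 0.04. TP63, the squamous lineage factor, was at 499 ± 55.7 CPM in stiff and 311 ± 10.2 CPM in soft (SD, n = 3, adjusted p = 0.000131). WWTR1, RELA and YAP1 rose by 1.23-fold to 1.26-fold (adjusted p = 0.00272, 0.00523 and 0.00793), but none passed in limma's test of log2(TPM + 1) (adjusted p = 0.0803, 0.157 and 0.238). HIF1A, JUN, TEAD1 and TEAD4 did not pass (adjusted p = 0.164 to 0.701). The pair that fell, named afterwards, was NFKB1 and MYC (1.22-fold and 1.21-fold); the count that fell was 1 without stiff replicate 1, soft replicate 1 or soft replicate 3, and 0 without soft replicate 2.

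Of 18 genes that act on PD-L1 protein, 7 fell and 3 rose, and the other 8 did not pass. The called share of 55.6% is near the 49.1% of all genes, and the median log2 fold change was -0.1. By direction, 38.9% were lower against 23.8% of all genes, and 16.7% were higher against 25.3%. B3GNT3, a glycosyltransferase that decorates PD-L1, fell 1.83-fold to 17.3 ± 1.24 CPM in stiff, against 31.7 ± 1.64 CPM in soft (SD, n = 3, adjusted p = 2.61e-05). STT3A, a catalytic subunit of oligosaccharyltransferase, fell 1.4-fold (adjusted p = 0.000627), the ubiquitin ligase MARCHF8 fell 1.41-fold (adjusted p = 0.001) and HIP1R, which routes PD-L1 to lysosomes, rose 1.31-fold (adjusted p = 0.000689). CMTM6, which keeps PD-L1 at the surface and was also named afterwards, was at 104 ± 2.04 CPM in stiff and 117 ± 5.36 CPM in soft (SD, n = 3, adjusted p = 0.0631). ZDHHC9 and GSK3B, named afterwards, rose 1.17-fold and 1.16-fold. The count that rose was 5 without stiff replicate 2 and 1 without stiff replicate 1, soft replicate 2 or soft replicate 3.

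Ligands outside the 10 did not move one way. Of 12 tested other inhibitory ligands (of 19 listed), 7 rose, 2 fell, 3 did not pass, and their median log2 fold change was 0.32. The called share was 75%, against 49.1% of all genes. HLA-G, CLEC2D and NECTIN1 did not pass (adjusted p = 0.165, 0.942 and 0.97), with 25.8% of the exons of HLA-G and 12.1% of those of CLEC2D overlapped by pseudogenes. LGALS1, a galectin that kills activated T cells, was at 127 ± 19.7 CPM in stiff and 14.3 ± 4.96 CPM in soft (SD, n = 3), an 8.92-fold rise and the largest of the list (adjusted p = 2.57e-06). CD24, the ligand of the macrophage receptor Siglec-10, was at 56 ± 3.22 CPM in stiff and 29.6 ± 1.76 CPM in soft (SD, n = 3, adjusted p = 1.07e-05), and HLA-E, which binds the inhibitory NK receptor NKG2A, rose 1.6-fold (adjusted p = 3.28e-05), with a share of its reads possibly common to other HLA class I genes. CEACAM1, another proposed partner of the galectin-9 receptor, fell 2.81-fold to 3.63 ± 0.809 CPM in stiff, against 10.2 ± 0.449 CPM in soft (SD, n = 3, adjusted p = 4.43e-05). BTN2A2, named afterwards, also fell (1.26-fold, adjusted p = 0.0253), a call lost without stiff replicate 1, soft replicate 1 or soft replicate 3 (adjusted p = 0.0541, 0.108 and 0.0772), which leaves 1 gene lower. Of 14 tested costimulatory ligands, 6 fell and 1 rose, a called share of 50%, near the 49.1% of all genes, and the median was -0.25. By direction, 42.9% were lower against 23.8% of all genes, and 7.14% were higher against 25.3%. Beside TNFSF14, CD70 fell 1.73-fold (adjusted p = 0.000339) and TNFSF15 fell 1.58-fold (adjusted p = 0.000802), and the adhesion ligand CD58 rose 1.63-fold (adjusted p = 0.000145). Without stiff replicate 3, 2 costimulatory genes rose.

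Of 10 ligands of activating NK receptors, 7 rose, 2 fell, 1 did not pass, and their median log2 fold change was 0.69. The called share was 90%, against 49.1% of all genes, and the gene that did not pass was ULBP3 (adjusted p = 0.212). MICA, a stress-induced ligand of NKG2D, was at 58.6 ± 7.64 CPM in stiff and 24.4 ± 0.848 CPM in soft (SD, n = 3, adjusted p = 5.6e-06). MICB rose 2.07-fold (adjusted p = 1.14e-05) and RAET1G rose 2.56-fold (adjusted p = 6.45e-05). ULBP1, another NKG2D ligand, fell 7.82-fold to 0.575 ± 0.141 CPM in stiff, against 4.52 ± 0.366 CPM in soft (SD, n = 3, adjusted p = 3.37e-06). NCR3LG1, named afterwards, had 13 fragments over the stiff libraries and 47 over the soft libraries, and its call was lost without soft replicate 1 (adjusted p = 0.058), which leaves 1 gene lower. The genes of the MIC and ULBP families resemble each other, so the split among them is uncertain. Receptors of the ligands were scarce: 5 of 16 were tested, and edgeR called 0 of them (0 at an unadjusted p below 0.05, and 0 with DESeq2 or limma on TPM), though PVRIG was called lower by edgeR without a count filter (adjusted p = 0.00268) and with a replicate block (adjusted p = 0.00914). CTLA4, CD28 and ICOS had 0 fragments in every library, and PDCD1 had 0 in stiff and 3 in soft. The tested receptors, other than SIRPA, were low: TIGIT at 1.72 ± 0.432 CPM in stiff and 2.2 ± 0.944 CPM in soft (adjusted p = 0.402), CD96 and CD160 (10.6% of its exons overlapped by RNF115) below 0.5 CPM in both groups, and PVRIG, whose exons are 80.9% covered by STAG3, at 2.18 ± 1.27 CPM in stiff and 3.69 ± 0.817 CPM in soft (SD, n = 3, adjusted p = 0.135). Without stiff replicate 2, the log2 fold change of PVRIG was -0.35 in place of -0.76, and that of TIGIT was -0.16 in place of -0.35.

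**Figure D5:**
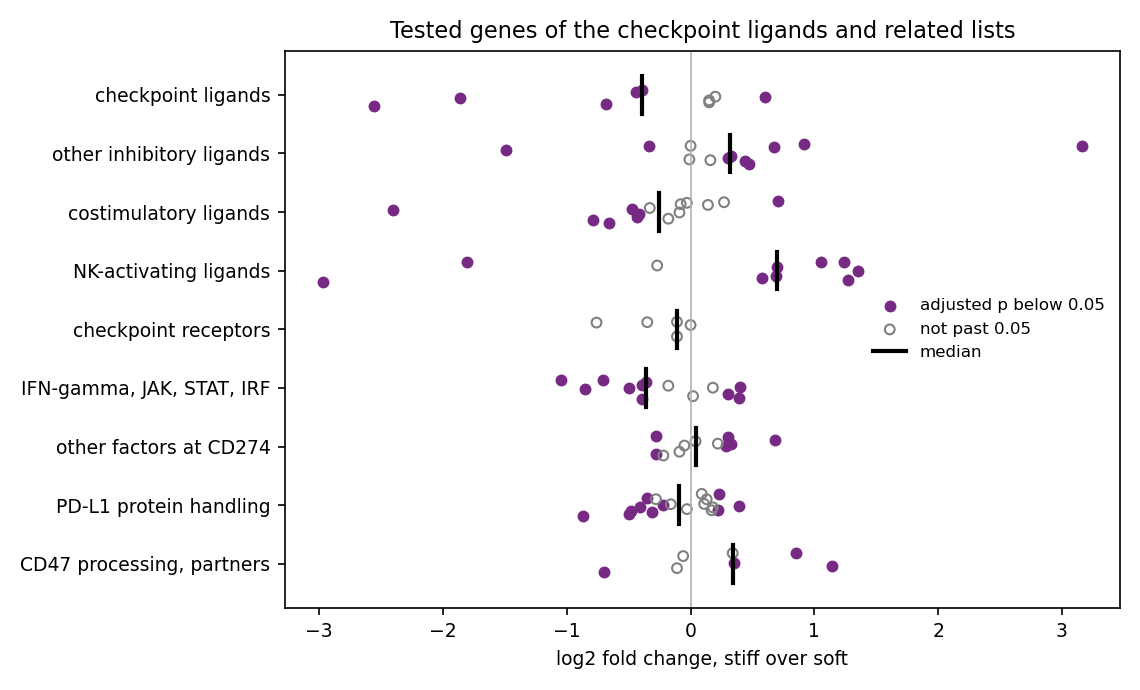
Log2 fold change of stiff over soft for every tested gene of the checkpoint ligands and 8 related lists (filled where adjusted p is below 0.05, open otherwise; black bars are list medians). The medians run from -0.39 for the checkpoint ligands to 0.69 for the ligands of activating NK receptors, beside 0 for all genes tested.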

How the data were processed

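Per the labels' protocols, poly(A) RNA from 500 ng of total RNA was made into directional libraries (10 PCR cycles) and sequenced as 61 bp pairs. The submitters' processing notes name STAR 2.6.1e, featureCounts 1.6.2, cutadapt 1.9.1, Trim Galore 0.4.2 and FastQC 0.11.7, and the hg38 build. Not given in the sources used here are the annotation, the strand setting and the rule for reads with several matches. The authors deposited whole fragment counts per gene symbol with no normalization. The deposited TPM were computed by the authors, to 1 decimal.

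The whole count table was fitted with edgeR 4.0.16 (quasi-likelihood, TMM, default filter, no covariate) in R 4.3.3, with Benjamini-Hochberg adjustment; fold changes come from that fit, and SEs and 95% intervals from its F test. DESeq2 1.42.0, limma 3.58.1 on TPM, other scaling and filters, a replicate block and each library left out were alternatives. The steps were tried on simulated counts in which every gene had the same spread beyond sampling noise and no library stood apart. That setting is simpler than these libraries, so the trial does not measure error rates here. Positions, merged exons and overlaps (stated from 10%, except for MIR6510) are from GENCODE release 29. Entrez numbers are from RefSeq GRCh38.p14, and both sources are of the hg38 build.

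The members and lists were chosen with earlier results of these data known. All 10 members, the 4 smallest p per list, every gene in a count of 5 or fewer and the 3 genes most like the member with the largest change were named. Genes in such small counts were named after their values were seen. Every pair of replicates differed by more than sampling noise (ratio of chi-square to its degrees of freedom 3.39 to 33.06). Some genes of the related lists are counted but not reported by name here.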

Additional observations from a re-analysis of the deposited data

How the results depend on the processing

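Of 132 values of the 9 tested members under 15 other settings, 123 kept direction and side of the threshold, and none changed sign: 8 concerned the lost call of CD274 and 1 the gained call of CD276. For CD274, limma gave adjusted p = 0.0603 on log2(TPM + 1), 0.0671 on log2(TPM + 0.1) and 0.0992 without a filter; the cause was not tested. The members higher numbered 1 to 2 and those lower 4 to 5 with each library left out. Over all genes, 4722 were higher and 4449 lower, and those higher numbered 2880 with limma on log2(TPM + 1), 2831 on log2(TPM + 0.1) and 3138 without a filter (41.3%, 41.6% and 43.3% of calls, against 51.5%), and 44.7% with library size only. With each library left out, 3746 to 5379 were higher and 3410 to 5224 lower. The median log2 fold change of all genes was -0.11 with log2(TPM + 0.1); values on that scale are relative to it.

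Of 603 values of 41 related genes, 559 kept their side, 41 lost and 2 gained a call (PVRIG, adjusted p = 0.00268 without a count filter and 0.00914 with the block), and 1 uncalled value changed sign (CD160, -0.47 to 0.42 with each library left out, the highest without soft replicate 2). List counts that moved over 1.5 times with limma on log2(TPM + 1) included other factors at CD274 higher (1, from 4) and genes acting on PD-L1 protein higher (1, from 3). In the same fit, 1 other inhibitory ligand was lower (from 2) and 0 ligands of activating NK receptors were lower (from 2). Its filter left BTN2A2, ULBP1 and NCR3LG1 untested. Without the filter ULBP1 (adjusted p = 0.000723) and NCR3LG1 (0.0144) were called lower and BTN2A2 was not (0.147). The NCR3LG1 values there were 0 TPM in every stiff library and 0.1 TPM in every soft library. That is the last decimal given, so this call carries little weight. Genes acting on PD-L1 protein higher numbered 1 also with library size only and without a count filter. With limma and no filter, 4 other inhibitory ligands were higher (from 7). Costimulatory ligands higher numbered 2, from 1, without a count filter and with the block.

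The labels' replicate numbers were not shown to pair the libraries: the deviations of same-numbered libraries correlated at 0.073, 0.216 and 0.05 across genes. Those of libraries with different numbers correlated at -0.164 to 0.093. The replicate 2 pair was thus the highest, and what these libraries might share was not tested. With the number as a replicate block, 5167 genes were higher and 5039 lower, 1 member was higher and 5 lower. Depth limits PDCD1LG2 and HHLA2 most.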
